A study of Mus musculus with 12 samples.

Results

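Scavenger receptors and the genes of lipid-laden macrophages were followed in whole lung of mice exposed to an allergen, to urban particles or to both. The set was chosen by name, as every probe set (a group of short oligonucleotides on the array that together measure 1 transcript) whose annotation gives a single symbol equal to 1 of 10 genes. The names were chosen with earlier results of these data known. Shares over all probe sets are therefore given for scale and do not test the set. Of these, 9 genes were found, with 19 of the 45101 probe sets of the array, against 34958 probe sets and 18194 genes with a single symbol in all. They are the scavenger receptors Msr1, Marco and Cd36, the lysosomal and phagocyte genes Cd68 and Gpnmb, the surface proteins Trem2 and Ms4a7, and Fabp5 and Lgals3. Spp1, the gene of osteopontin, has no probe set with a single symbol in the annotation used, and its level was not analysed here.

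RNA came from whole lungs of A/J mice aged 8 to 10 weeks and was hybridised to 12 arrays in 4 groups of 3, on day 4 after the particles. Control (PBS/PBS) mice received vehicle alone. OVA mice were sensitized with the allergen ovalbumin, a model of asthma, at 0.4 mg/kg intraperitoneally on day 0 and challenged with 30 mg/kg intratracheally on day 14. PM mice were naive and aspirated 50 µl of a suspension of 10 mg/ml of ambient particulate matter, and OVA/PM mice received the allergen and then the particles. Whole lung holds epithelium, vessels and blood cells beside macrophages, so fewer cells of a type and less RNA per cell cannot be told apart in any value below. The labels do not say whether the arrays of a group came from separate animals, while the methods describe RNA from the lungs of as many animals as there are arrays, and the p-values measure the spread between these arrays.

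The names of the single exposures are in doubt. The study's account gives the larger response in gene expression to the particles, while in the deposited values it lies on the arrays titled OVA. Ratios of the group means fit that account with the names OVA and PM exchanged. Of the 28 folds that the study printed for 14 probe sets, 28 equalled the rounded ratios with the names exchanged and 4 as labelled. Every sample description also calls the animal a control. The groups are therefore called the arrays labelled OVA and the arrays labelled PM, and where a sentence says OVA or PM alone it means these labels. Which exposure the arrays labelled OVA share with OVA/PM cannot be settled here. The comparison of OVA/PM with Control and the test of interaction use no distinction between these names.

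Values are log2 intensities as the authors deposited them. Of the probe sets of a gene, the leading probe set is the one with the highest mean over the 12 arrays, and unless another is named it stands for the gene. Testing was limited to probe sets at or above 4.93, the median of the whole table, on every array of 1 or both groups. A change was called at a Benjamini-Hochberg adjusted p under 0.05 from limma, adjusted over the whole array. A fold is the linear mean of 1 group over that of the other, with an SD propagated from the arrays (n = 3 per group). A group with no array at 4.93 has only an upper limit, so the fold was taken from 4.93 and is written as at least. Over all arrays, values ran from 0.48 to 16.26 and array medians from 4.84 to 5.03, and levels of different probe sets are not compared with each other.

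Scavenger receptors are a loose family of surface proteins that bind modified lipoproteins, microbes and particles and carry them into the cell. In the lung, alveolar macrophages sit on the airway surface and take up inhaled material and surfactant by this route, while monocytes that enter inflamed tissue can take on a program of lysosomal, lipid-binding and lipid-sensing genes, described in foam cells, adipose tissue and injured brain. Trem2 binds lipids and apoptotic cells and signals through an adaptor, Gpnmb and Cd68 are membrane glycoproteins of lysosomes and late endosomes, and Fabp5 and Lgals3 are soluble proteins that bind fatty acids and galactosides.

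Of the 9 genes, 8 rose and Cd36 fell on the arrays labelled OVA against Control, and the same 8 rose and Cd36 fell in OVA/PM. Among all probe sets tested, 8.68% were called higher and 10.5% lower in OVA against Control, and 10.9% higher and 10.9% lower in OVA/PM against Control. The median log2 fold change of the 9 genes was 2.72 in OVA and 2.04 in OVA/PM, beside medians of -0.05 and -0.03 over all 22498 and 22538 probe sets tested. Both comparisons share the Control arrays, and the genes were chosen with earlier results known, so these counts and medians are not an independent result. On the arrays labelled PM, 8 of the genes could be tested against Control and 0 were called, where 0.0539% of 22246 probe sets were called higher and 0.0180% lower.

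**Figure D1:**
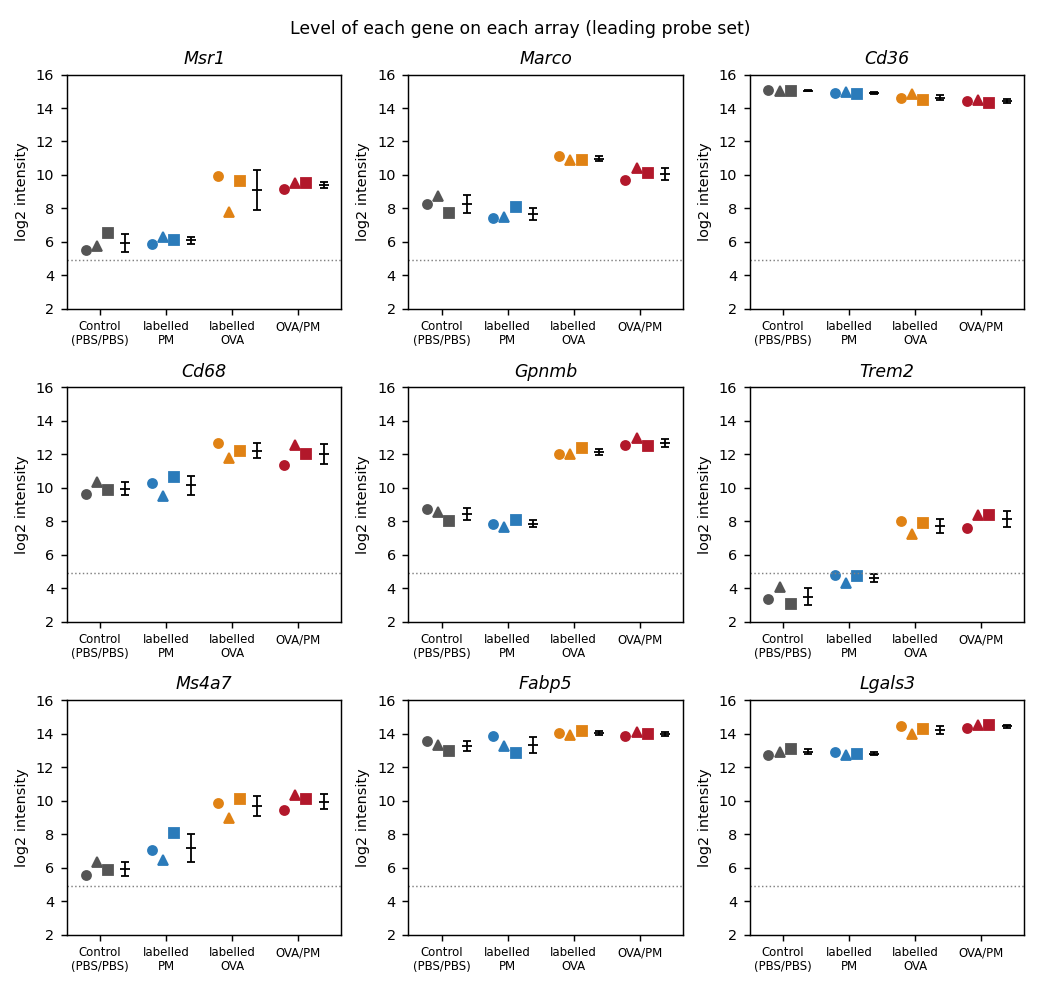
Log2 intensity of the leading probe set of each of the 9 genes on each of the 12 arrays, by group. Circles, triangles and squares are replicates 1, 2 and 3, the bars beside them give the mean and SD (n = 3), and the dotted line marks 4.93, the level of the filter. In 8 panels the arrays labelled OVA and the OVA/PM arrays lie above all Control arrays, and in the panel of Cd36 they lie below. The share of all probe sets that separate in this way was not computed. Unadjusted p from limma was under 0.05 for 8728 of 22498 probe sets in OVA and 8407 of 22538 in OVA/PM against Control.

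Msr1, the class A macrophage scavenger receptor that takes up acetylated lipoproteins (chromosome 8, 39543232 to 39642750 of GRCm38.p6), rose in OVA and in OVA/PM. Its log2 intensity was 5.52, 5.73 and 6.52 on the Control arrays, 5.87, 6.28 and 6.10 on those labelled PM, 9.94, 7.76 and 9.67 on those labelled OVA, and 9.19, 9.50 and 9.51 in OVA/PM. Replicate 2 labelled OVA was well under the other two, yet no array of OVA or OVA/PM reached down to the Control or PM arrays. The linear mean was 10.6-fold that of Control in OVA (SD 4.35, log2 fold change 3.199 with SE 0.61, limma's adjusted p = 0.0242) and 10.7-fold in OVA/PM (SD 2.49, log2 fold change 3.48, SE 0.26, adjusted p = 0.000816). The other 3 probe sets of Msr1 also had higher means in both groups, with 1425434_a_at short of the threshold in OVA where it differed by 2.47 in log2 (SE 0.74, with an adjusted p of 0.0643). With no filter the adjusted p of Msr1 in OVA was 0.0602, and it was above 0.05 on leaving out Control replicate 1 or 2 or OVA replicate 1 or 3, reaching 0.0910.

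Marco, the other class A receptor, which binds unopsonized particles and bacteria on alveolar macrophages (chromosome 1, 120474538 to 120505024), had its highest levels on the arrays labelled OVA. It read 8.29, 8.75 and 7.70 on the Control arrays, 7.41, 7.48 and 8.10 on those labelled PM, 11.14, 10.86 and 10.91 on those labelled OVA, and 9.69, 10.43 and 10.09 in OVA/PM, as log2 intensity. The arrays labelled OVA lay above every OVA/PM array, and both groups lay above Control without overlap. The fold over Control was 6.34 in OVA (SD 1.35, log2 fold change 2.72 with SE 0.26, limma's adjusted p = 0.00747) and 3.47 in OVA/PM (SD 0.87, log2 fold change 1.83, SE 0.31, adjusted p = 0.0105). Its second probe set, 1458297_s_at, rose in OVA by 3.71 in log2 intensity (SE 0.40, adjusted p = 0.00870), and in OVA/PM its difference of 1.71 was not called (SE 0.80, adjusted p = 0.173). There its values of 5.06, 8.02 and 7.17 spread widely and replicate 1 lay within the Control range of 4.38 to 5.99.

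Cd36, a class B receptor for oxidized lipoproteins and long-chain fatty acids that capillary endothelium and fat cells also carry (chromosome 5, 17781690 to 17888959), moved the opposite way. Its log2 intensity was 15.08, 15.02 and 15.04 on the Control arrays, 14.90, 14.98 and 14.84 on those labelled PM, 14.58, 14.81 and 14.48 on those labelled OVA, and 14.43, 14.50 and 14.30 in OVA/PM. The Control arrays were nearly equal, and every exposed array, those labelled PM included, lay below them. The mean was 0.751 of Control in OVA (SD 0.0520, log2 fold change -0.42 with SE 0.10, limma's adjusted p = 0.0410) and 0.645 in OVA/PM (SD 0.0277, log2 fold change -0.63, SE 0.09, adjusted p = 0.00671). All 3 probe sets of Cd36 fell in both groups, and the dimmest, 1450884_at, fell by 0.96 in OVA (SE 0.17, adjusted p = 0.0198) and by 1.06 in OVA/PM (SE 0.10, adjusted p = 0.00175). In OVA the call of the leading probe set was lost with no filter (adjusted p = 0.0637) and on leaving out any array but OVA replicate 2, reaching 0.125. Markers of endothelium fell in the same groups: their summed linear intensity, over 8 of 8 genes, was 55659.8 to 58585.9 in Control, 33526 to 43488 in OVA and 33027.1 to 36221.6 in OVA/PM, and its part in the fall of Cd36 was not tested.

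The start regions of Marco and Cd36 are shown because these receptors changed in opposite directions. Each is the 250 bases before an annotated start of transcription, from RefSeq for GRCm38.p6, read 5′ to 3′ on the gene's own strand. That of Marco is chr1:120505025-120505274 and that of Cd36 is chr5:17835897-17836146, both on the minus strand. The window of Marco directly adjoins the gene span given above. The window of Cd36 lies inside its gene span, before an internal start. Capitals mark matches to GAGGAAG, the core of sites bound by PU.1, an ETS factor of macrophages, to TGANTCA, the AP-1 site, or to CACGTG, the E-box of the MITF and TFEB factors of lysosomal genes, searched on both strands.
Marco: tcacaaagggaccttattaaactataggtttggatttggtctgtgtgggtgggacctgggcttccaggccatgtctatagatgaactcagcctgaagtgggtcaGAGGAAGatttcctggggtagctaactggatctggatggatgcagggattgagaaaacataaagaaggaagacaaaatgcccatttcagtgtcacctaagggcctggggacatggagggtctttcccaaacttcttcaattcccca
Cd36: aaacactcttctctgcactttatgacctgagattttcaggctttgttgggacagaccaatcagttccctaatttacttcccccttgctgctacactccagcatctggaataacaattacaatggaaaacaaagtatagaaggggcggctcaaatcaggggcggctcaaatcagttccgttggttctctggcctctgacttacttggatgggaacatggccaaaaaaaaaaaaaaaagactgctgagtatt
The window of Marco held GAGGAAG 146 to 140 bases before the start, and the window of Cd36 held none of the 3 motifs. The region before the outermost start of Cd36 was not searched. Among 32851 windows of the same length, 10.6% held GAGGAAG, 6.75% TGANTCA and 6.02% CACGTG and no match printed here overlapped another. A match is a run of letters and not a measured site.

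Cd68, a lysosomal membrane glycoprotein used as a general macrophage marker (chromosome 11, 69664213 to 69666170), rose in OVA and OVA/PM. It read 9.66, 10.36 and 9.85 on the Control arrays, 10.30, 9.53 and 10.64 on those labelled PM, 12.69, 11.78 and 12.21 on those labelled OVA, and 11.38, 12.57 and 12.05 in OVA/PM. The lowest of these 6 arrays, OVA/PM replicate 1, was above the highest of the Control and PM arrays. The fold over Control was 4.88 in OVA (SD 1.15, log2 fold change 2.27 with SE 0.28, limma's adjusted p = 0.0109) and 4.26 in OVA/PM (SD 1.17, log2 fold change 2.04, SE 0.33, adjusted p = 0.00922). The call in OVA was lost without OVA replicate 3, at an adjusted p of 0.0532.

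Gpnmb, a transmembrane glycoprotein of lysosomes and melanosomes that marks lipid-laden macrophages (chromosome 6, 49036518 to 49058182), had the largest fold of the genes measured above the filter in Control when OVA/PM was compared with it. Its log2 intensity was 8.71, 8.58 and 8.00 on the Control arrays, 7.83, 7.66 and 8.10 on those labelled PM, 12.02, 12.01 and 12.36 on those labelled OVA, and 12.53, 12.97 and 12.52 in OVA/PM. The groups formed separate bands except for Control and PM, which overlapped. The mean was 12.8-fold that of Control in OVA (SD 2.09, log2 fold change 3.70 with SE 0.21, limma's adjusted p = 0.00351) and 18.7-fold in OVA/PM (SD 3.302, log2 fold change 4.24, SE 0.22, adjusted p = 0.000254). Its call held without any 1 of the arrays in both comparisons. The second probe set, 1439345_at, was under 4.93 on every array, between 2.09 and 4.77, and was not tested.

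Trem2, the receptor for lipids and apoptotic cells of tissue macrophages and microglia (chromosome 17, 48346401 to 48352276), was under the filter level on all Control arrays and above it on all OVA and OVA/PM arrays. It read 3.33, 4.06 and 3.09 on the Control arrays, 4.76, 4.33 and 4.70 on those labelled PM, 8.01, 7.25 and 7.92 on those labelled OVA, and 7.61, 8.39 and 8.40 in OVA/PM. The PM arrays lay above the Control arrays but under 4.93, where low intensities carry little information, and that difference of 1.11 was not tested. With no filter its adjusted p was 0.625. Against 4.93, Trem2 was at least 6.94-fold higher in OVA (log2 fold change over Control 4.23, SE 0.31, adjusted p = 0.00485 from limma) and at least 9.21-fold higher in OVA/PM (log2 fold change 4.64, SE 0.32, adjusted p = 0.000634). These rest on 1421792_s_at, a type of probe set that can also take up other transcripts. The second probe set of Trem2, 1421226_at, stayed between 3.11 and 3.38 on all 12 arrays, did not pass the filter and was not tested. It showed no such rise, but values under the filter level carry little information.

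Ms4a7, a membrane protein of the MS4A family found in monocyte-derived macrophages (chromosome 19, 11321039 to 11336146), rose in OVA and OVA/PM, and it was also higher on each array labelled PM than on any Control array. Its log2 intensity was 5.56, 6.36 and 5.84 on the Control arrays, 7.03, 6.43 and 8.05 on those labelled PM, 9.86, 8.98 and 10.12 on those labelled OVA, and 9.42, 10.32 and 10.08 in OVA/PM. The PM arrays thus stood between the Control arrays and those of OVA and OVA/PM, with replicate 2 next to the highest Control array. The fold over Control was 13.7 in OVA (SD 3.69, log2 fold change 3.74 with SE 0.34, limma's adjusted p = 0.00691) and 16.4 in OVA/PM (SD 3.91, log2 fold change 4.02, SE 0.29, adjusted p = 0.000703). Both calls held without any 1 of the arrays. The second probe set, 1445365_at, read 2.81 to 3.53 throughout and was not tested.

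The start regions of Trem2, Cd68 and Gpnmb, which rose together, are shown in the same way, the first 2 because they held matches and that of Gpnmb because it held none. They are chr17:48346151-48346400 on the plus strand, chr11:69666171-69666420 on the minus strand and chr6:49036268-49036517 on the plus strand.
Trem2: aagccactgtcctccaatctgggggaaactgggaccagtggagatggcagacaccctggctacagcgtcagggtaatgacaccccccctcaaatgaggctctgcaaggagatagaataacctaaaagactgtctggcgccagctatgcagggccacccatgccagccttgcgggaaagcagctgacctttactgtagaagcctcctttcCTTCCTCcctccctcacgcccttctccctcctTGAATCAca
Cd68: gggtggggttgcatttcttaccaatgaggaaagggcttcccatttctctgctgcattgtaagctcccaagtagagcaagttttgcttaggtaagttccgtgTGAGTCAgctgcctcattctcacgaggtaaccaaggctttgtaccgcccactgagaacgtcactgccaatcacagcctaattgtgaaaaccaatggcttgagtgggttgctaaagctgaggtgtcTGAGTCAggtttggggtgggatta
Gpnmb: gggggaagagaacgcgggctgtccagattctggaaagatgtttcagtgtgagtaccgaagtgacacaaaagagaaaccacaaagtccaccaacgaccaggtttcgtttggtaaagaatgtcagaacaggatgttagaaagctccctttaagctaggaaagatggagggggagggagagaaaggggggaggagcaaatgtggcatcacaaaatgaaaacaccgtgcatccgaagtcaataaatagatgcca
Trem2 held CTTCCTC, the reverse complement of GAGGAAG, 41 to 35 bases before the start and the AP-1 letters TGAATCA 9 to 3 bases before it. Cd68 held TGAGTCA at 149 to 143 and again at 24 to 18 bases before the start. The window of Lgals3 and the first window of Ms4a7 held none of the motifs, while the second window of Ms4a7 held TGATTCA 81 to 75 bases before its start. The table of start regions gave 10 windows for 8 of the 10 genes.

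Fabp5, a cytosolic carrier of fatty acids present in alveolar macrophages and epithelium (chromosome 3, 10012585 to 10016610), rose least of the 8. It read 13.57, 13.31 and 12.94 on the Control arrays, 13.84, 13.27 and 12.84 on those labelled PM, 14.02, 13.90 and 14.14 on those labelled OVA, and 13.86, 14.09 and 13.96 in OVA/PM, as log2 intensity. All OVA and OVA/PM arrays were above all Control and PM arrays, with PM replicate 1 directly under them. The fold over Control was 1.66 in OVA (SD 0.220, log2 fold change 0.75 with SE 0.17, limma's adjusted p = 0.0349) and 1.60 in OVA/PM (SD 0.211, log2 fold change 0.70, SE 0.17, adjusted p = 0.0337). Both calls were lost with no filter, at adjusted p of 0.0765 and 0.0738, and each on leaving out 4 of the 6 arrays in turn, reaching 0.119 and 0.0975. These were Control replicates 2 and 3 and OVA replicates 1 and 3 for OVA, and Control replicate 2 and each OVA/PM array for OVA/PM. The second probe set, 1416022_at, differed from Control by 1.02 in OVA (adjusted p = 0.0671) and by 0.73 in OVA/PM (adjusted p = 0.173) and was called in neither.

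Lgals3, the galectin that macrophages secrete and keep in the cytosol (chromosome 14, 47373860 to 47386167), rose with little spread between arrays. Its log2 intensity was 12.75, 12.94 and 13.08 on the Control arrays, 12.91, 12.75 and 12.79 on those labelled PM, 14.45, 13.97 and 14.28 on those labelled OVA, and 14.36, 14.50 and 14.52 in OVA/PM. The OVA and OVA/PM arrays stood apart from the Control and PM arrays by most of a log2 unit. The fold was 2.50 in OVA (SD 0.284, log2 fold change 1.31 with SE 0.15, limma's adjusted p = 0.00967) and 2.89 in OVA/PM (SD 0.211, log2 fold change 1.53, SE 0.11, adjusted p = 0.000747). In OVA the adjusted p was 0.0501 without OVA replicate 3.

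**Figure D2:**
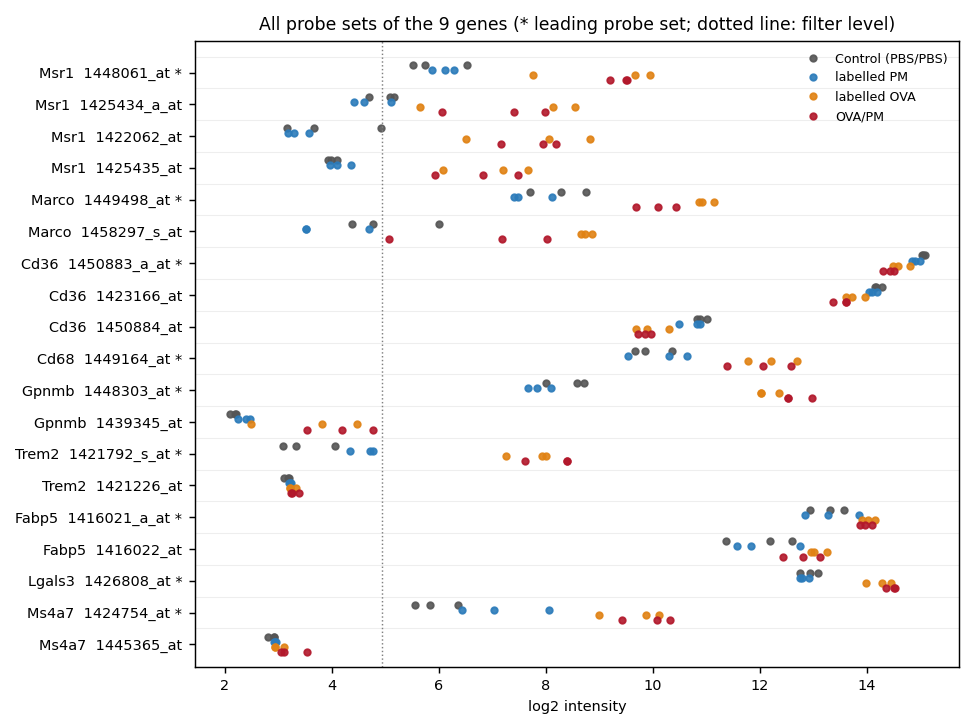
Log2 intensity of all 19 probe sets of the 9 genes, 1 dot per array, coloured by group, with an asterisk at the leading probe set of each gene and a dotted line at 4.93. The second probe sets of Trem2 and Ms4a7 stay near 3 on all arrays, while the probe sets of Msr1 and of Cd36 each move in 1 direction on the OVA and OVA/PM arrays.

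Over all probe sets of the genes, 16 of 19 were tested in OVA and in OVA/PM against Control, and 11 were called higher and 3 lower in each. The 3 that were lower are those of Cd36. The 11 differed: 1458297_s_at of Marco was called in OVA alone and 1425434_a_at of Msr1 in OVA/PM alone. In PM against Control 11 were tested. Tested in OVA and OVA/PM but not there were 1425434_a_at, 1422062_at and 1425435_at of Msr1, 1458297_s_at of Marco and 1421792_s_at of Trem2. These were under 4.93 on some or all Control arrays and passed the filter through the higher group alone. Each was called in OVA, in OVA/PM or in both. The arrays within a group did not vary gene by gene alone: replicate 2 labelled OVA was the lowest of its group for 8 of the 9 genes, and OVA/PM replicate 1 for 7 of the 9. On leaving out each array in turn, between 4 and 9 genes were called in OVA against Control, with 4 without OVA replicate 3, and between 8 and 9 in OVA/PM against Control.

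On the arrays labelled PM, none of the 8 genes tested was called against Control. Ms4a7 differed from Control by 1.25 in log2 intensity (SE 0.43, adjusted p = 0.544 from limma). Gpnmb differed by -0.56 (adjusted p = 0.577), and these were the 2 of 8 with an unadjusted p under 0.05, beside 1810 of all 22246 probe sets. The values for Msr1, Cd68, Fabp5 and Lgals3 ran from -0.11 to 0.20, Marco was at -0.58 and Cd36 at -0.14. The 95% intervals are wide, at -1.33 to 0.17 for Marco, 0.22 to 2.29 for Ms4a7 and -0.57 to 0.97 for Cd68, and those of Marco and Ms4a7 take in differences of more than 1 log2 unit. SAM, the test of the study's methods, also called 0.

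**Figure D3:**
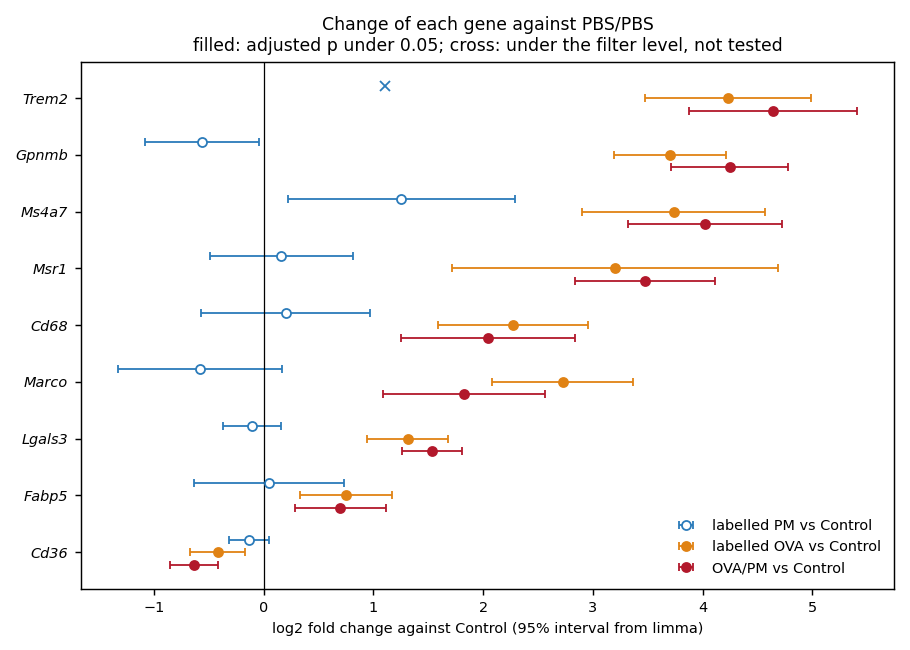
Log2 fold change of each gene against Control (PBS/PBS), with 95% intervals from limma, for the arrays labelled PM, the arrays labelled OVA and OVA/PM (3 arrays a group). Filled points passed an adjusted p of 0.05 and the cross marks Trem2 in PM, which was not tested; all 9 genes are filled in OVA and in OVA/PM, with Cd36 alone left of 0.

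Between OVA/PM and the arrays labelled OVA, none of the 9 genes passed the threshold. Among all probe sets, 0.125% were called higher and 0.00447% lower in OVA/PM against OVA. Marco was lower on every OVA/PM array than on any array labelled OVA, at 0.547-fold (SD 0.0862, log2 fold change -0.90, SE 0.20), and missed the threshold over 22379 probe sets (adjusted p = 0.333 from limma). Gpnmb was higher on every OVA/PM array, at 1.46-fold (SD 0.197, log2 fold change 0.54, SE 0.17, adjusted p = 0.479). These were the 2 of 9 with an unadjusted p under 0.05, beside 1965 of all probe sets, and SAM called 0. The remaining 7 genes ran from -0.23 for Cd68 to 0.41 for Trem2, with 95% intervals of -1.05 to 1.60 for Msr1 and -0.31 to 0.22 for Fabp5.

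The interaction asks whether the change with both exposures differs from the sum of the single changes, and it is the same whichever single group bears which name. Of the 9 genes 0 were called, where 0.0132% of 22688 probe sets were called higher and 0.0132% lower. Gpnmb came nearest at 1.11 in log2 intensity (SE 0.29, adjusted p = 0.535 from limma) and was the 1 gene of 9 with an unadjusted p under 0.05, beside 1412 of all probe sets. Ms4a7 was at -0.97 (95% interval -2.31 to 0.38), Trem2 at -0.70 (-1.65 to 0.25) and Msr1 at 0.12 (-1.39 to 1.62).

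The order of the 4 groups placed OVA and OVA/PM above Control and PM for 8 genes and below them for Cd36. OVA/PM came first for Msr1, Gpnmb, Trem2, Lgals3 and Ms4a7, and OVA first for Marco, Cd68 and Fabp5, but the difference between OVA and OVA/PM was called for no gene. That between Control and PM was called for none of the 8 genes tested. Of the step between these pairs of groups, 7 genes passed the test and Cd36 and Fabp5 did not: Cd36 between PM and OVA at -0.28 (adjusted p = 0.144 from limma) and Fabp5 between OVA/PM and PM at 0.65 (adjusted p = 0.135).

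Set against the arrays labelled PM, 7 genes were higher and Cd36 lower in OVA/PM, and 7 were higher in OVA. The background was 7.13% higher and 5.77% lower in OVA/PM against PM, and 3.24% higher and 1.96% lower in OVA against PM. Of the genes above the filter on the PM arrays, Gpnmb differed most from PM, at 28.1-fold in OVA/PM (SD 3.92, log2 fold change 4.81, SE 0.17, adjusted p = 0.000163) and 19.2-fold in OVA (SD 2.35, log2 fold change 4.27, SE 0.15, adjusted p = 0.00112). Marco was 5.28-fold higher in OVA/PM (SD 1.15, adjusted p = 0.00332) and 9.67-fold higher in OVA (SD 1.67, adjusted p = 0.00813). In OVA/PM against PM the call of Cd36 was lost without any array but OVA/PM replicate 2 and that of Cd68 without PM replicate 1 or 2 or OVA/PM replicate 2 or 3, with the highest adjusted p at 0.0846 and 0.0808. In OVA against PM the count fell to 1, Gpnmb, with no filter, and on leaving out an array it was between 1 and 7, with 1 without OVA replicate 1 or 3, 2 without PM replicate 2, and 3 without PM replicate 1 or 3.

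Some of the other scavenger receptors were called. Of 14 tested from a list of 18, 3 rose and 0 fell in OVA, and 3 rose and 1 fell in OVA/PM. The medians were -0.16 and -0.02. Among all probe sets tested, 8.68% were called higher and 10.5% lower in OVA, and 10.9% higher and 10.9% lower in OVA/PM. These shares are also the background for the counts in OVA and OVA/PM of the lists that follow. Clec7a, the receptor for fungal beta-glucan, rose by 2.38 in OVA (SE 0.35) and 2.70 in OVA/PM (SE 0.31). Olr1, a receptor for oxidized low-density lipoprotein, rose by 1.67 (SE 0.25) and 2.13 (SE 0.21). Scara5, a class A receptor that binds ferritin, fell by 1.01 in OVA/PM (SE 0.28, adjusted p = 0.0499 from limma) and stood at 0.12 in OVA (adjusted p = 0.729).

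Genes of lipid handling in macrophages rose in part. Of 20 tested from a list of 22, 9 rose in OVA and 8 in OVA/PM, 0 fell, and the medians were 0.41 and 0.34. Ch25h, which makes a hydroxylated cholesterol, rose by 3.39 in OVA (SE 0.61) and 3.95 in OVA/PM (SE 0.44), and Ctsk, the lysosomal protease cathepsin K, by 3.44 (SE 0.16) and 3.51 (SE 0.13). Nr1h3, the nuclear receptor for oxysterols, was at -0.14 and -0.56 and Fabp4, the fatty acid carrier of fat cells and macrophages, at 0.03 and -0.56, with none of these called.

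No gene family of the set was called in full. The median log2 fold changes in OVA and OVA/PM were 0.99 and 0.73 for TREM and 1.24 and 1.14 for MS4A. They were 0.82 and 0.37 for galectins, -0.49 and -1.52 for fatty acid carriers and -0.05 and -0.07 for osteopontin receptors. Over all probe sets tested the medians were -0.05 and -0.03. In the TREM family and its adaptors, 0 of 7 were called in OVA and 1 of 7 in OVA/PM, the kinase Syk at 1.33 (SE 0.28, adjusted p = 0.0228 from limma). In the MS4A family 2 of 8 rose in OVA, and 4 rose and 1 fell in OVA/PM. Its Ms4a6d, another macrophage member, rose by 2.58 (SE 0.48) and 2.67 (SE 0.30), and Ms4a4d fell by 0.49 in OVA/PM (SE 0.13). Among other fatty acid carriers 0 of 3 rose, 1 fell in OVA and 2 fell in OVA/PM, with Fabp1, the liver form, at -2.11 (SE 0.42) and -2.36 (SE 0.23). Among other galectins and their partners 3 of 7 rose in OVA and 2 of 6 in OVA/PM, including Lgals1 at 0.82 (SE 0.11) and 0.81 (SE 0.12) and Lgals3bp, a secreted glycoprotein that binds galectins, at 2.34 (SE 0.26) and 1.98 (SE 0.15). Of 9 receptors of osteopontin, 1 fell in OVA, and 1 rose and 2 fell in OVA/PM, where Cd44 was at 0.85 (SE 0.17, adjusted p = 0.0187 from limma). Itgb5 was at -0.33 in OVA (SE 0.09, adjusted p = 0.0475) and -0.36 in OVA/PM (SE 0.09, adjusted p = 0.0312). Itga8 was at -0.74 in OVA/PM (SE 0.14, adjusted p = 0.0142). In PM against Control 0 genes of any of these lists were called.

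Macrophage markers rose in part beside the 9 genes. Of 15 markers of monocytes and interstitial macrophages tested, 8 rose in OVA and 9 in OVA/PM, with medians of 1.25 and 1.41. Fcgr1, the high-affinity IgG receptor, rose by 3.78 in OVA (SE 0.73) and 3.02 in OVA/PM (SE 0.49), and Cd14, the co-receptor for endotoxin, by 2.26 (SE 0.41) and 2.06 (SE 0.22). Lyz2, the lysozyme of myeloid cells, was not called at 0.22 and 0.08. The summed linear intensity of this list was 73574 to 77544.6 in Control, 75109.2 to 82050.4 in PM, 91555.8 to 106184 in OVA and 84948.9 to 104494 in OVA/PM, so the group means of OVA and OVA/PM were 1.33 and 1.28 times that of Control. This sum rests on bright genes that changed little, with 59.7% of it in Control from Lyz2 and 22.4% from Cd74, the invariant chain. No marker of the list lay under the filter on all arrays of a group.

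Genes listed as markers of resident alveolar macrophages were mixed. Of 12 tested, 4 rose in OVA, and 4 rose and 2 fell in OVA/PM. Itgax, the integrin CD11c, rose by 2.03 in OVA (SE 0.17) and 2.49 in OVA/PM (SE 0.14). Chil3, a secreted chitinase-like protein, rose by 2.34 in OVA/PM (SE 0.14) and stood at 0.53 in OVA (adjusted p = 0.0767 from limma), and Cidec, a lipid droplet protein, fell by 1.51 in OVA/PM (SE 0.33). The summed linear intensity was 40975.2 to 54896.1 in Control, 48299.1 to 62251 in PM, 49108.1 to 64913.3 in OVA and 60589.2 to 62852.8 in OVA/PM. OVA overlapped Control on this sum, and OVA/PM lay above it. In Control, 37.9% of the sum came from Fabp4 and 19.7% from Ccl6. Fabp4 is also a gene of fat cells, so the list does not measure alveolar macrophages alone. The part of other cells in its changes was not tested. On the mean of log2 values over the list, OVA did not overlap Control. The arrays read 10.46 to 10.92 in Control, 10.70 to 11.20 in PM, 11.03 to 11.34 in OVA and 11.11 to 11.35 in OVA/PM.

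**Figure D4:**
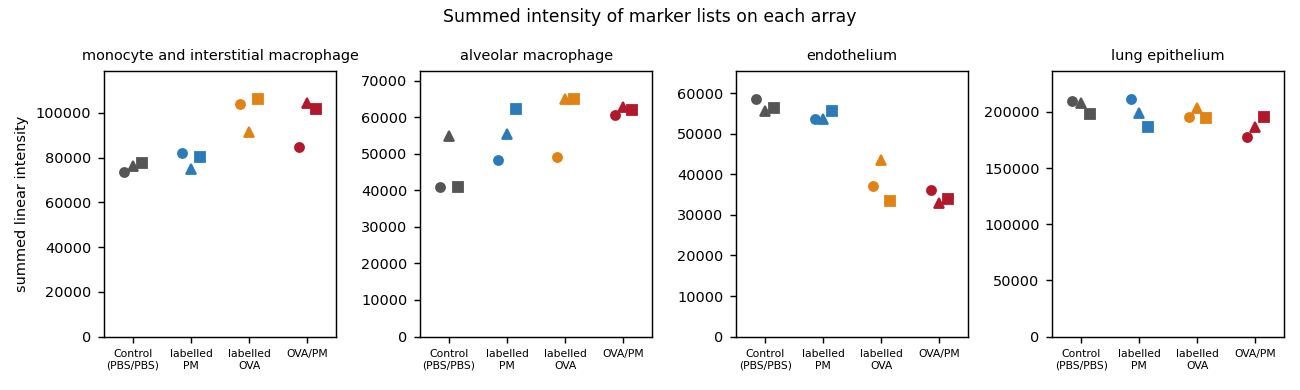
Summed linear intensity of 4 marker lists on each array (circles, triangles and squares are replicates 1, 2 and 3), with the axis from 0. Monocyte and interstitial macrophage markers lie higher and endothelial markers lower on all 6 OVA and OVA/PM arrays than on the Control arrays. Alveolar macrophage and epithelial markers overlap between OVA and Control. On the OVA/PM arrays the alveolar macrophage sums all lie above those of Control and the epithelial sums all below.

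Among other cells of the lung, 0 of 8 endothelial markers rose, and 4 fell in OVA and 7 in OVA/PM, with the receptors Tek at -0.75 (SE 0.14) and -0.997 (SE 0.10) and Tie1 at -0.80 (SE 0.14) and -0.98 (SE 0.13). The summed level of the endothelial list was 0.669 of Control in OVA and 0.605 in OVA/PM, beside 0.751 and 0.645 for Cd36. Epithelial markers summed to 0.964 and 0.910 of Control, and none of the 7 measured lay under the filter on all arrays of a group. In Control 33.0% of this sum came from Scgb1a1 and 25.2% from Sftpc. Of the 7, 1 rose in OVA, and 1 rose and 2 fell in OVA/PM. Sftpd rose by 0.54 in OVA and 0.51 in OVA/PM, and in OVA/PM Sftpb fell by 0.47 and Ager by 0.33. Of neutrophil markers 1 of 6 rose in OVA and in OVA/PM, lactoferrin (Ltf), by 3.07 (SE 0.53) and 2.82 (SE 0.45). Not called were Mmp8 at 1.87 and 1.96, S100a8 at -0.78 and -0.66 and S100a9 at -0.92 and -0.83. The list medians were -0.18 and -0.13. The neutrophil sum ran from 6357.14 to 45351.1 over the Control arrays, and its mean was 0.892 of Control in OVA, 0.697 in OVA/PM and 0.190 in PM. Of T cell markers 3 of 4 rose in OVA and 3 of 5 in OVA/PM. Of 5 eosinophil markers, 4 were under the filter on all arrays of every group. Adipocyte markers, of a cell type that carries Cd36, had 0 of 3 called in either group and a summed level of 1.46 times Control in OVA and 0.542 in OVA/PM. Their sums were 1376.7 to 3613.75 in Control, 1202.12 to 5415.31 in OVA and 1208.46 to 1410.62 in OVA/PM. Striated muscle markers summed to 0.939 of Control in OVA and 0.453 in OVA/PM, where 3 of 7 fell, among them Myot at -4.74 (SE 0.99) and Tnnt3 at -4.78 (SE 1.34). The part of these cells in the changes of the 9 genes was not tested.

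The genes whose pattern was most like that of each member were taken by the root mean square difference of log2 values, each centred on its mean over the 12 arrays, among 11405 genes. Nearest to Msr1 were the mitotic kinesin Cenpe (0.31), Ch25h (0.32) and the kinesin Kif20a (0.32), and nearest to Marco were Ifi27l2a (0.44), the kinesin Kif11 (0.50) and the thymidine kinase Tk1 (0.50). Cd68 was nearest to Naip2 (0.29), Milr1 (0.29) and the cytokine receptor subunit Csf2rb2 (0.30). Gpnmb was nearest to the mitotic kinase Aurka (0.50), the complement factor Cfb (0.55) and Ctsk (0.58). Trem2 was nearest to Cst7 (0.46), the protease inhibitor cystatin F, then to Uhrf1 (0.47) and Cfb (0.47), and Ms4a7 to Hal (0.45), the kinase Pbk (0.47) and Lhfpl2 (0.48). Fabp5 was nearest to Adgrd1 (0.16), Crybg1 (0.16) and Ifngr2 (0.19), a chain of the interferon gamma receptor, and Lgals3 to Rnf149 (0.16), the actin-binding Cotl1 (0.17) and Sh3pxd2b (0.18). Cd36 was nearest to Hopx (0.07), Esam (0.07) and Emp2 (0.07). Among the members, Trem2 and Ms4a7 were nearest to each other (0.45), followed by Fabp5 with Lgals3 (0.49) and Cd68 with Lgals3 (0.49). The measure favours genes whose changes are of like size, and the 12 arrays share 4 groups, so it describes these arrays alone.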

How the data were processed

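Whole-lung RNA was measured on 12 Affymetrix Mouse Genome arrays. The authors deposited log2 intensities computed with GCRMA, which corrects background by probe composition, quantile-normalizes the arrays and summarizes probes by median polish. The submitters' processing notes also name MAS5, and versions are not given in the sources used here. Quantile normalization equalizes the arrays, so changes are relative to the other probe sets. Detection calls were not used here, and the filter at 4.93 stands in for them.

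Pairs of groups were fitted with limma 3.58.1 in R 4.3.3 (lmFit, eBayes, Benjamini-Hochberg) after 64 control probe sets were left out, and the interaction in a fit of all 4 groups. The code was tested on simulated data with known changes. In groups of 3 the smallest p of an exact permutation test is 0.1, so limma carries the tests. Symbols came from the platform annotation (932 probe sets had several and 9211 none). Every probe set of a member is described. Up to 4 genes per list are named, from among the 2 highest and 2 lowest in OVA/PM against Control, with genes a result turns on. For each member the 3 nearest genes are named. The members and lists were chosen with earlier results of these data known. Of 18 pairs of arrays with the same replicate number, 3 had deviations correlated over 0.1, so the numbers were not taken to pair the arrays. The alternatives tried were: testing all probe sets, a filter at 8.65, adding 16 to linear intensities, quantile-normalizing again, replicate number as a blocking factor, fitting the 4 groups together, SAM (20 relabelings, own code), other probe sets, and leaving out each array.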

Additional observations from a re-analysis of the deposited data

How the results depend on the processing

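In OVA/PM against Control between 8 and 9 of the 9 genes were called under every alternative run. In OVA against Control, 9 genes were called with the offset, the further normalization, the fit of all groups, SAM and the probe set with the lowest p, 7 at the higher filter, 6 with no filter, 1 with a replicate block, and 4 to 9 on leaving out an array. The labels do not say that replicate numbers pair the arrays, and for 2 of 12 arrays the closest array of another group had the same number. With the block 0 genes were called in PM against Control, OVA/PM against OVA and the interaction, 8 in OVA/PM against Control, and 6 in each of OVA and OVA/PM against PM. OVA against PM gave 7 calls, 1 with no filter, 8 with SAM, and 1 to 7 on leaving out an array. OVA/PM against PM gave 6 to 8 over all settings. The comparisons with 0 calls stayed at 0 throughout. The cause of these differences was not tested.

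Signs turned only for differences that were not called. On leaving out an array in PM against Control, Msr1 ran from -0.040 (without Control replicate 1) to 0.458, Cd68 from -0.039 (without PM replicate 3) to 0.513, and Fabp5 from -0.214 (without PM replicate 1) to 0.286, with -0.118 without Control replicate 3 and -0.0044 by its probe set 1416022_at. In OVA/PM against OVA, Msr1 ran from -0.405 (without OVA replicate 2) to 0.687, Ms4a7 from -0.049 (without OVA replicate 2) to 0.545, Cd68 from -0.514 to 0.082 (without OVA/PM replicate 1), with 0.0025 without OVA replicate 1, and Fabp5 from -0.110 to 0.013 (without OVA replicate 3), with 0.0064 without OVA/PM replicate 1. The other probe sets of Msr1 read -0.297, -0.030 and -0.245 there. In the interaction, Msr1 ran from -0.567 (without OVA replicate 2) to 0.525, with -0.181 without Control replicate 3, -0.022 by 1425434_a_at and -0.390 by 1425435_at, which is also its probe set with the lowest p. Fabp5 ran from -0.334 to 0.165 (without PM replicate 1), with 0.070 without Control replicate 3, and Cd36 from -0.148 to 0.015 (without OVA replicate 2), with 0.065 by 1450884_at. With 3 arrays a group, and with Trem2 and several second probe sets near background, small differences were not detectable here.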
